A study of Mus musculus with 20 samples.

Results

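The nuclear genes of oxidative phosphorylation were examined in the developing auditory system of the mouse. They were taken as every gene of the count table whose symbol begins with Ndufa, Ndufb, Ndufc, Ndufs, Ndufv, Uqcr, Cox4 to Cox8 or Atp5, leaving out names with "-ps", and 86 of 22734 genes met this rule. By the roles of their products, 36 belonged to complex I, 8 to complex III, 18 to complex IV (with Ndufa4 and Ndufa4l2, which are complex IV genes in spite of their names) and 16 to complex V, and 8 encoded assembly factors (Ndufaf1 to Ndufaf7 and Atp5sl). All 86 are protein-coding genes of the GENCODE M21 annotation. The rule leaves out complex II, cytochrome c and the subunits encoded in mitochondrial DNA, which are described separately near the end.

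RNA was sequenced from the cochlea and from the superior olivary complex (SOC), where brainstem neurons first compare the input of both ears, at embryonic day 16 (E16), the day of birth (P0) and postnatal day 16 (P16). There were 3 cochlea libraries at each age, and 4, 4 and 3 SOC libraries at E16, P0 and P16. All animals were wild type and untreated. Cochlear sensory epithelium came from C57BL/6JOlaHsd mice and SOC tissue from C57Bl6/J mice. Cochleae came from several animals of both sexes at each age, and each SOC library pooled several animals, which were of both sexes at P0 and P16. At E16 the SOC region was cut from frozen whole heads, whereas at P0 and P16 the brain had been taken out of the skull. The way of killing for the SOC also went with age. Embryos of E16 came by C-section from anesthetized mothers, P0 animals were decapitated, and P16 animals received CO2 before decapitation. The organs also differed in substrain, laboratory, library kit and sequencer, and levels in the cochlea and the SOC cannot be told apart from such differences.

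The respiratory chain of the inner mitochondrial membrane passes electrons from NADH through complexes I, III and IV to oxygen and pumps protons, and complex V, the ATP synthase, uses the proton gradient to make ATP. Most subunits are encoded in the nucleus, a few in mitochondrial DNA, and several subunits of complex IV have a common form and a second form of muscle, lung, testis or low oxygen. Hair cells, cochlear supporting tissues and brainstem auditory neurons all have a high demand for ATP once hearing has begun.

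Libraries held 20843679 to 33109083 counts. The pattern of zeros split the table into 4 sets of libraries, in each of which every listed gene reached at least 21 counts: 1 for the cochlea and 3 for the SOC (a first with the E16 and P0 replicates 1 to 3, a second with the E16 and P0 replicates 4 and the P16 replicates 1 and 2, and P16 replicate 3 by itself). A 0 from a gene left out of such a joined table allows up to 20 counts, and any other 0 up to 3 counts, for counting error only. Summed hair cell markers reached 388 to 1139 CPM (counts scaled to a common library total) in the cochlea, and summed neuronal markers reached 2788 to 7635 CPM in the SOC. The same 10 hair cell markers summed to 182 to 344 CPM in the SOC, where Slc26a5 and Tmc1 were at 0 in every library and 7 of the 8 others fell from E16 to P16. The 12 skeletal muscle markers summed to 891 to 1876 CPM in the SOC at E16, against 10.2 to 16.8 CPM at P0 and 4.28 to 5.93 CPM at P16. The 8 oligodendrocyte markers summed to 144 to 270.2 CPM in the SOC at E16 and to 44054 to 46711 CPM at P16. The part of these cell types in the changes below was not tested, and in such bulk samples fewer cells of a type and less RNA per cell cannot be told apart.

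The 86 members took 0.48% ± 0.0108 of all counts in the cochlea at E16 (SD, n = 3), 0.467% ± 0.0164 at P0 and 0.614% ± 0.0591 at P16. Their share of the SOC counts was 1.03% ± 0.0905 at E16 (SD, n = 4), 1.26% ± 0.13 at P0 (n = 4) and 1.54% ± 0.00926 at P16 (n = 3). With TMM scaling, which corrects library totals for genes that dominate them, the means of the 3 ages in order were 0.461%, 0.479% and 0.625% in the cochlea and 0.966%, 1.21% and 1.78% in the SOC, so that the order of E16 and P0 in the cochlea turned with the scaling. On both scales every P16 library lay above every E16 library of its organ, and in the cochlea the lowest of the 3 P16 libraries was replicate 3 with 0.546%. Complex V took the largest share of the groups in every library. Complex I went from 0.264% ± 0.0245 to 0.41% ± 0.00291 between E16 and P16 in the SOC, and from 0.14% ± 0.00311 to 0.185% ± 0.0229 in the cochlea. The assembly factors went from 0.0122% ± 0.000734 to 0.00993% ± 0.000891 and 0.0126% ± 0.000867 in the cochlea. These shares describe the libraries and were not tested, since they are a score over the members.

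Between E16 and P16 the oxidative phosphorylation genes rose broadly in the SOC. A member is said to have risen or fallen when its Benjamini-Hochberg adjusted p in edgeR's quasi-likelihood F test, run on all genes of the organ, was under 0.01. By this test 68 of 86 members rose and 1 fell, whereas 23.7% of all 16588 genes tested rose and 26.5% fell. The median log2 fold change was 0.86 over the members and -0.15 over all genes. By complex, 30 of 36 members of complex I, 8 of 8 of complex III, 13 of 18 of complex IV, 12 of 16 of complex V and 5 of 8 assembly factors rose. The SOC libraries did not overlap between E16 and P16, with P16 higher, for 64 members, against 21.9% of all genes. With the joined table as a term, a fit in which replicate 3 of P16 is alone in its table and adds nothing to the comparison, 74 members rose, beside 26.3% of all genes. With upper-quartile factors, which moved the median of all genes to -0.27, 57 rose, beside 21% of all genes.

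In the cochlea 30 of 85 tested members rose from E16 to P16 and 1 fell, beside 26.2% of all 21097 genes tested that rose and 23.6% that fell. Cox6a2 was left out of the cochlea table and stands at 0 in all its libraries. The share of members that rose, 35.3%, was thus closer to the background than in the SOC. The member that fell was Cox6b2. The median log2 fold change was 0.41 over the members and 0.01 over all genes, and 75 of the 85 estimates were above 0. For 43 members the P16 libraries lay above all E16 libraries, against 31.3% of all genes. Complex I had 13 of 36 members that rose, complex III 4 of 8, complex IV 9 of 17, complex V 3 of 16 and the assembly factors 1 of 8. Replicate 3 of P16 had the lowest share of counts in members among the P16 libraries, as given above, and its erythroid markers summed to 1164 CPM against 173 and 275 CPM in the other P16 libraries, whose part in the result was not tested. The sums of some other markers rose too. The 5 Schwann cell markers summed to 57.1 to 71.6 CPM in the cochlea at E16 and 4406 to 4915 CPM at P16, with all 5 higher and a median log2 fold change of 5.15. At these ages the oligodendrocyte markers summed to 166 to 169 CPM and 2022 to 2695 CPM, with 5 of 7 tested genes higher. The neuronal markers summed to 542 to 701 CPM and 2121 to 2657 CPM, where 6 of 9 tested genes rose and 2 fell. The hair cell markers summed to 388 to 417 CPM and 1004 to 1139 CPM, where 8 of 10 rose and 1 fell. Their part in the change of the members was not tested either. The count of 30 was 40 without that library (47.1% of the members, with 26.3% of all genes) and 46 with offsets adjusted along GC content (54.1%, with 30.6%). Without replicate 1, 2 or 3 of E16 or without replicate 2 of P16 it was 17. That is 20% of the members, below the 22% to 23.9% of all genes that rose in the same fits, so the cochlear count did not exceed the background when any 1 of these 4 libraries was left out. Without replicate 1 of P16 it was 21 (24.7%, with 24.6% of all genes). Leaving out replicate 3 of P0 gave 22 (25.9%, with 24.9%), so both counts were near the background.

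Of the 30 members that rose in the cochlea, 29 also rose in the SOC, which is 96.7% of the cochlea list and 42.6% of the SOC list. The 96.7% stands beside 79.1% of all members that rose in the SOC, so most of any such list would overlap. Ndufa13, a complex I subunit also known as GRIM-19, rose in the cochlea (0.80 ± 0.20, adjusted p = 0.0046) and stood at 0.54 ± 0.19, adjusted p = 0.024 in the SOC. Exons of opposite-strand genes cover 30.0% of its exons. Another 17 members passed in neither organ in the direction of a rise: Ndufa2, Ndufa7, Ndufb7, Ndufs6 and Ndufv3 of complex I, Cox4i2, Cox6a2, Cox6b2, Cox7a2l and Ndufa4l2 of complex IV, Atp5d, Atp5e, Atp5g2 and Atp5o of complex V, and Ndufaf3, Ndufaf4 and Ndufaf6.

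**Figure D1:**
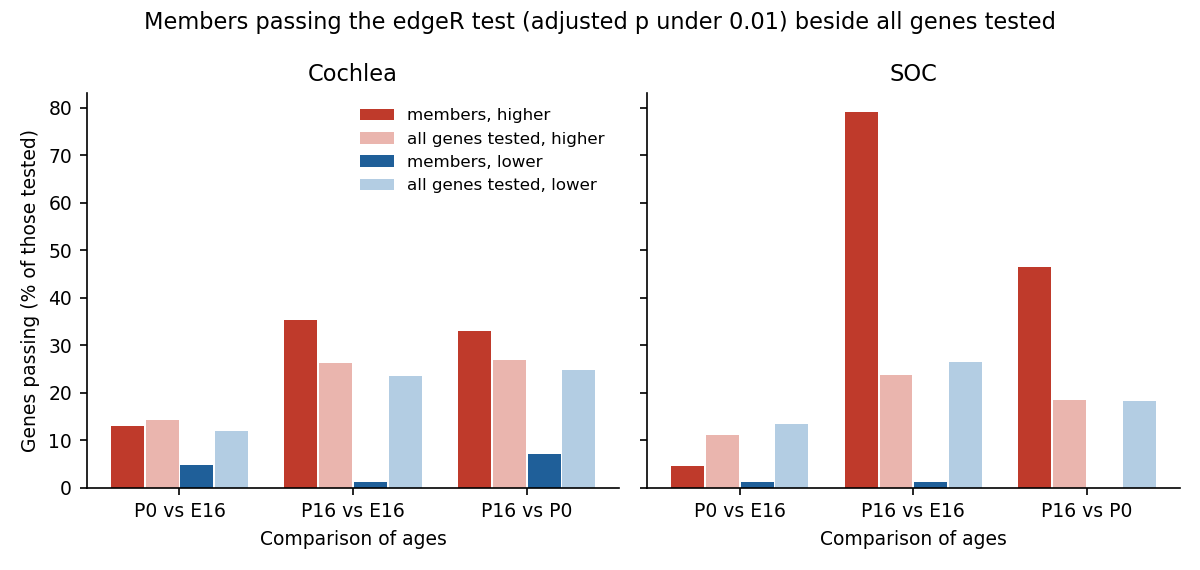
Percent of genes that passed the edgeR test (adjusted p under 0.01) higher or lower at the later age, for the members (dark bars) and for all genes tested (pale bars), in the cochlea (left) and the SOC (right). The tallest bar is the 79.1% of members higher at P16 than at E16 in the SOC, beside 23.7% of all genes.

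The larger changes were few. A member was called when its edgeR estimate was also over 2.5-fold with no overlap of the 2 ages. That estimate includes the TMM factors, whereas the CPM printed here do not. In the SOC these factors were 0.825, 0.833 and 0.955 at P16 and 1.04 to 1.10 at E16. By mean CPM Ndufs1 went from 192 to 408, Ndufa9 from 89.5 to 184.7 and Cox7a1 from 0.710 to 1.66 there. These changes and that of Ndufa4 are under 2.5-fold without the factors. In the SOC 5 members were called higher at P16 than at E16 (Ndufs1, Ndufa9, Ndufa4, Cox7a1 and Cox8b) and 1 lower (Ndufa4l2), against 12.4% and 15% of all genes. In the cochlea Cox7a1 and Cox8b were called, both higher, against 14.8% of all genes called higher and 9.55% called lower. The calls were thus a smaller share of the members than of all genes in both organs, and most rises were of under 2.5-fold.

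Complex I takes up electrons from NADH through the flavin-bearing subunit Ndufv1 and a chain of iron-sulfur clusters. Core subunits of nuclear origin that rose in the SOC included Ndufs1, Ndufs3, Ndufs7, Ndufs8, Ndufv1 and Ndufv2. Ndufs1, the largest iron-sulfur subunit, stood in the SOC at 179.8, 165, 184 and 240.4 CPM at E16, 267, 237, 235 and 284 at P0 and 443, 426 and 356 at P16. All 3 P16 libraries lay above the E16 libraries, and the highest E16 value came from replicate 4, which shares its table with replicates 1 and 2 of P16. The log2 fold change from E16 to P16 was 1.39 ± 0.18, adjusted p = 2.5e-05. In the cochlea the values of Ndufs1 were 121, 99.6 and 116 CPM at E16, 100.3, 71.0 and 71.2 at P0 and 194, 195 and 123 at P16. The P16 libraries were above the E16 libraries, but replicate 3 only just, and the change was 0.69 ± 0.19, adjusted p = 0.0079. It no longer passed without replicate 1, 2 or 3 of E16, replicate 2 or 3 of P0, or replicate 1 or 2 of P16.

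Ndufv1, which binds NADH and the flavin, stood in the SOC at 176, 121, 158 and 123 CPM at E16, 232, 175, 186 and 154 at P0 and 231, 229 and 275 at P16. P16 lay above E16 but overlapped P0, and the change from E16 was 1.06 ± 0.16, adjusted p = 0.00012. Its cochlear values were 84.8, 81.9 and 83.0 CPM at E16, 84.2, 78.7 and 68.4 at P0 and 133, 151 and 102 at P16. There the log2 fold change was 0.71 ± 0.14, adjusted p = 0.0011, and the P16 libraries were all above the others. Further core subunits changed in the SOC by 0.79 (Ndufs3), 0.87 (Ndufs7), 0.84 (Ndufs8) and 1.19 (Ndufv2) on the log2 scale, and Ndufs7 no longer passed without replicate 2 of E16 or replicate 3 of P16 and with upper-quartile factors.

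Among the accessory subunits, Ndufa9 showed one of the clearest rises of the SOC, with 85.2, 77.4, 91.3 and 104 CPM at E16, 114, 104, 106 and 111 at P0 and 188, 192 and 174 at P16. P16 stood apart from both earlier ages, which lay close together, with a log2 fold change of 1.35 ± 0.14, adjusted p = 3.7e-06 against E16 and 1.03 ± 0.14, adjusted p = 6.5e-05 against P0. In the cochlea Ndufa9 was at 100.4, 92.4 and 48.2 CPM at P16, where replicate 3 fell below every E16 library (65.4, 48.6 and 63.8 CPM). The cochlear change was 0.52 ± 0.26, adjusted p = 0.096. Ndufa5 had the largest estimate of complex I in the cochlea, 0.99 ± 0.24, adjusted p = 0.0034, with 15.9, 10.3 and 14.9 CPM at E16 and 25.6, 33.8 and 17.8 CPM at P16, and it no longer passed without replicate 2 of either age. Ndufa7 had the lowest estimate of the complex in both organs, with -0.08 ± 0.19 in the cochlea and -0.09 ± 0.20 in the SOC, neither of which passed.

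Complex III carries electrons from ubiquinol to cytochrome c. All 8 of its members rose in the SOC, within a narrow range of log2 fold changes from 0.87 for the Rieske iron-sulfur protein Uqcrfs1 to 1.11 for the small subunit Uqcr11. Uqcrc1, a core protein of the complex, stood in the SOC at 239, 190.0, 230.0 and 184 CPM at E16, 347, 297, 299 and 207 at P0 and 332, 338 and 411 at P16. The 3 P16 libraries overlapped the P0 libraries but not the E16 libraries, and the change from E16 was 1.07 ± 0.16, adjusted p = 9.2e-05. In the cochlea 4 of the 8 rose, namely Uqcr10, Uqcrc1, Uqcrfs1 and Uqcrq. Uqcrq, a ubiquinone-binding subunit, had the largest change there, from 28.0, 30.8 and 29.5 CPM at E16 to 36.8, 45.6 and 41.0 at P0 and 57.4, 58.0 and 52.7 at P16. The 3 ages did not overlap, and the log2 fold change from E16 to P16 was 1.01 ± 0.12, adjusted p = 2.5e-05. Uqcrh, the hinge protein near the cytochrome c docking site, had the smallest cochlear estimate of the complex, 0.32 ± 0.12, adjusted p = 0.036.

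Complex IV, cytochrome c oxidase, held both the largest rises and the 2 falls between E16 and P16. The common subunits rose in the SOC: Cox4i1 by 1.17, Cox5a by 1.16, Cox5b by 0.91, Cox6a1 by 0.85, Cox6b1 by 0.81, Cox7a2 by 0.87, Cox7b by 1.21 and Cox8a by 0.96 on the log2 scale, where Cox5b no longer passed without replicate 2 of E16. Cox4i1, which helps to tune the activity of the enzyme, was at 358, 295, 353 and 296 CPM at E16, 478, 403, 392 and 332 at P0 and 604, 589 and 591 at P16, an order without overlap between the P16 libraries and the others. In the cochlea Cox4i1 was at 227, 182 and 219 CPM at E16, 191, 184 and 171 at P0 and 319.5, 354 and 185 at P16. Replicate 3 of P16 fell among the earlier libraries there, and the change was 0.54 ± 0.21, adjusted p = 0.042.

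Ndufa4, once counted to complex I and now known as a subunit of complex IV, rose in both organs. Its SOC values were 199, 154, 185 and 167 CPM at E16, 297, 248, 243 and 226 at P0 and 414, 400.0 and 352 at P16. Each age stood apart from the one before, and the change from E16 to P16 was 1.45 ± 0.15, adjusted p = 3.7e-06. In the cochlea Ndufa4 was at 54.6, 50.1 and 57.4 CPM at E16, 56.7, 55.5 and 53.2 at P0 and 107, 95.2 and 90.2 at P16. There E16 and P0 overlapped and P16 stood above both, with a change from E16 of 0.93 ± 0.11, adjusted p = 1.8e-05. Cox7a2l, which takes part in the assembly of respiratory supercomplexes, did not follow: its cochlear values went from 108, 92.2 and 96.5 CPM at P0 to 74.3, 75.8 and 68.5 at P16, a fall with a log2 fold change of -0.45 ± 0.09, adjusted p = 0.0016.

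Complex V consists of a catalytic head, a stalk and a rotating ring of c subunits in the membrane. SOC libraries had the catalytic subunit Atp5b at 1506, 1168, 1441 and 1323 CPM at E16, 1859, 1608, 1577 and 1476 at P0 and 1986, 1985 and 2058 at P16. The P16 libraries lay above all earlier ones, with a log2 fold change from E16 of 0.86 ± 0.13, adjusted p = 0.0001. Cochlear libraries had it at 649, 596 and 671 CPM at E16, 558, 514 and 497 at P0 and 938, 921 and 738 at P16. P16 lay above P0 and E16 in every library, and the change from E16 was 0.52 ± 0.12, adjusted p = 0.0031, which no longer passed without replicate 1 or 2 of E16 or of P16. Per kilobase of exon, Atp5a1, its partner in the catalytic head, had the highest mean level of all members at each age of both organs, from 179.3 CPM per kilobase in the cochlea at P0 to 529.8 in the SOC at P16, with Atp5b second except in the cochlea at P0, where Cox8a came before it. By CPM, without the length, Atp5b lay above Atp5a1 in every SOC library. Atp5a1 rose in the SOC (0.78 ± 0.12, adjusted p = 0.00013) and stood at 0.27 ± 0.11, adjusted p = 0.044 in the cochlea. Atp5d and Atp5e of the central stalk and Atp5o of the peripheral stalk passed in neither organ, with SOC estimates of 0.30, -0.15 and 0.35.

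Atp5g1, Atp5g2 and Atp5g3 encode the same mature c subunit behind different import sequences. Per kilobase, Atp5g3 made up 75.3% ± 4.43 of their summed level in the cochlea at E16 and 78.1% ± 7.60 at P16 (SD, n = 3), and 50.6% ± 4.13 (n = 4) and 60.2% ± 1.36 (n = 3) in the SOC. These shares depend on the lengths used, which join all annotated exons: 4912 bases for Atp5g1, 1675 for Atp5g2 and 2181 for Atp5g3. By CPM, without the length, Atp5g1 lay above Atp5g3 in every SOC library. In the SOC the share of Atp5g2 went from 23.0% ± 4.04 at E16 to 16.9% ± 0.989 at P0 and 10.3% ± 2.13 at P16. Atp5g2 itself was at 13.0, 24.3 and 15.1 CPM at E16, 21.1, 28.9 and 29.8 at P0 and 6.38, 7.46 and 14.8 at P16 in the cochlea. Its P16 libraries lay below the P0 libraries, and the fall had a log2 fold change of -1.50 ± 0.32, adjusted p = 0.0019, which no longer passed without replicate 2 of P16. In the SOC its change from E16 to P16 was -0.41 ± 0.20, adjusted p = 0.094, whereas Atp5g1 and Atp5g3 rose by 0.90 and 0.99.

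The assembly factors were low in both organs, and their medians per kilobase were below those of every complex. Ndufaf1, which takes part in building the membrane arm of complex I, rose most in the SOC, from 23.2, 18.8, 22.6 and 30.3 CPM at E16 to 41.7, 39.9 and 33.5 at P16 (1.00 ± 0.20, adjusted p = 0.00084). In the cochlea Atp5sl, an assembly factor in spite of its name, was the only one of the 8 that rose from E16 to P16 (0.58 ± 0.12, adjusted p = 0.0011). Ndufaf2 and Ndufaf4 fell in the cochlea from E16 to P0 (-1.04 ± 0.22, adjusted p = 0.0033 and -0.87 ± 0.14, adjusted p = 0.00092) and rose again to P16. The fall of Ndufaf2 no longer passed without replicate 1 or 3 of E16 or replicate 2 or 3 of P0. Exons of opposite-strand genes cover 65.7% of the exons of Ndufaf2, and whether the counting used strand is not given in the sources used here.

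The tissue-dependent isoforms of complex IV had the widest range of changes. Cox8b is the heart and muscle form of the small subunit whose common form is Cox8a. Cox8b had 6, 5 and 3 counts in the cochlea at E16, 10, 26 and 30 at P0, and 591, 698 and 433 at P16, or 0.245, 0.214 and 0.112 CPM at E16, 0.421, 0.923 and 0.962 at P0 and 22.3, 21.1 and 17.2 at P16. The 3 ages did not overlap. P0 exceeded E16 by a log2 fold change of 2.13 ± 0.41, adjusted p = 0.0022, which no longer passed without replicate 3 of either age, and P16 exceeded E16 by a log2 fold change of 6.80 ± 0.34, adjusted p = 3.1e-08. Its mean rate of counts at P16 was 108.3 times that of E16, with a 95% exact interval of 64.4 to 198.5 that covers counting error only. Per kilobase, Cox8b made up 0.755% ± 0.302 of Cox8a and Cox8b together at E16, 1.57% ± 0.344 at P0 and 32.2% ± 9.83 at P16 (SD, n = 3). In the same cochlear libraries at P16 the skeletal muscle markers summed to 6.95 to 14.8 CPM, with Tnnc2 and Myog at 0 in every library, and the 4 brown fat markers in the table summed to 4.25 to 5.22 CPM at E16 and 8.49 to 13.0 CPM at P16, with 3 of the 4 higher at P16 and a median log2 fold change of 3.64. The part of either cell type in the rise of Cox8b was not tested.

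In the SOC Cox8b had 25, 9, 13 and 6 counts at E16, 0, 0, 2 and 0 at P0, and 86, 48 and 85 at P16. Those counts of 0 stand in tables that list the gene. The 3 P16 libraries, at 3.42, 1.94 and 3.03 CPM, lay above the highest E16 value of 1.17 CPM, with a log2 fold change of 2.5 ± 0.61, adjusted p = 0.0033. It no longer passed without replicate 2 of E16 or replicate 1 of P16. The fall from E16 to P0 also passed. The ratio of pooled count rates was 27.2 for E16 over P0 (95% exact interval 7.18 to 230.7) and 128.7 for P16 over P0 (35.2 to 1069). The E16 libraries are those with skeletal muscle markers at 891 CPM or more, whose part in the E16 level of Cox8b was not tested.

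Cox7a1, the heart and muscle partner of Cox7a2, rose in both organs. In the cochlea it was at 1.96, 1.88 and 1.90 CPM at E16, 3.50, 4.37 and 4.39 at P0 and 5.36, 6.49 and 6.34 at P16. The 3 ages did not overlap, with log2 fold changes of 1.19 ± 0.18, adjusted p = 0.0005 from E16 to P0 and 1.75 ± 0.18, adjusted p = 7e-06 from E16 to P16. In the SOC the values were 0.843, 0.692, 0.703 and 0.602 CPM at E16, 1.10, 1.11, 1.2 and 0.983 at P0 and 1.19, 1.5 and 2.28 at P16, where P16 overlapped P0 but not E16, with a change from E16 to P16 of 1.5 ± 0.35, adjusted p = 0.0027. Per kilobase its share of Cox7a1 and Cox7a2 together was 9.86% ± 0.471 at E16 and 17.3% ± 1.94 at P16 in the cochlea, and 0.926% ± 0.145 and 1.46% ± 0.576 in the SOC. Cox6a2, the muscle partner of Cox6a1, had 47, 45, 39 and 29 counts in the SOC at E16, 9, 4, 11 and 1 at P0, and 13, 11 and 0 at P16, the 0 coming from a table without the gene. Its E16 libraries lay above all others beside the muscle markers given above, and the change from E16 to P0 was -2.63 ± 0.82, adjusted p = 0.025.

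**Figure D2:**
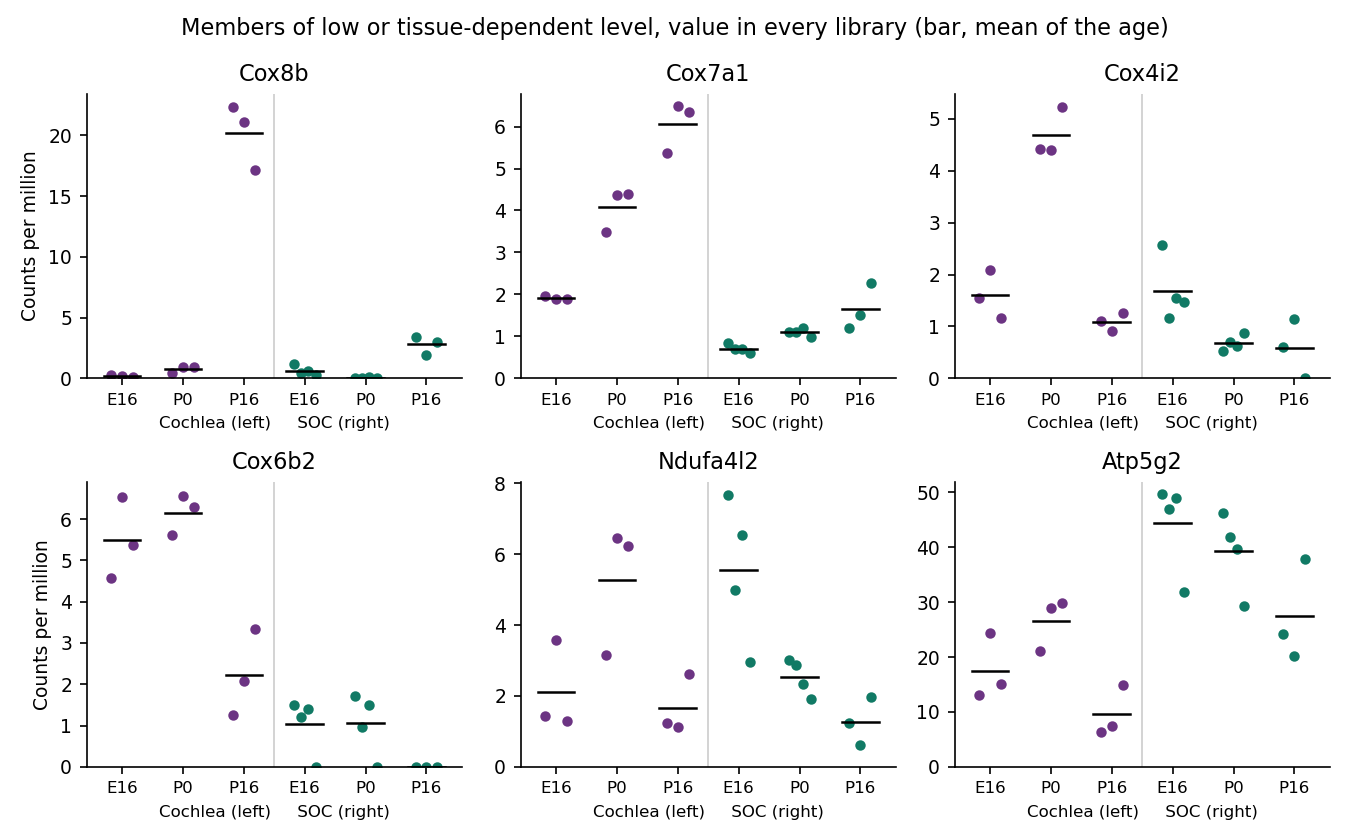
CPM (linear axes) of 6 members in every library, with the 3 cochlear ages on the left of each panel and the SOC on the right, and black bars for the means of the ages. Cox8b rises to between 17.2 and 22.3 CPM in the cochlea at P16, Cox4i2 peaks in the cochlea at P0, and Cox6b2 is at 0 in all 3 SOC libraries of P16 through tables that leave the gene out.

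Cox4i2, the form of lung and of low oxygen, peaked in the cochlea at birth, with 1.55, 2.09 and 1.15 CPM at E16, 4.42, 4.40 and 5.23 at P0 and 1.10, 0.906 and 1.27 at P16. The P0 libraries stood apart from both other ages, with a rise of 1.65 ± 0.22, adjusted p = 0.00028 and a later fall of -2.12 ± 0.23, adjusted p = 1.4e-05 on the log2 scale. Ndufa4l2, a paralog of Ndufa4 known to be induced at low oxygen, was at 1.43, 3.59 and 1.30 CPM at E16, 3.16, 6.46 and 6.22 at P0 and 1.25, 1.12 and 2.62 at P16 in the cochlea. E16 and P0 overlapped, and the fall from P0 to P16 was -1.72 ± 0.44, adjusted p = 0.0057, which no longer passed without replicate 2 or 3 of P0 or replicate 1 or 2 of P16. In the SOC Ndufa4l2 was at 7.68, 4.98, 6.55 and 2.97 CPM at E16, 3.02, 2.87, 2.35 and 1.93 at P0 and 1.23, 0.608 and 1.96 at P16. All P16 libraries lay below all E16 libraries, with a change of -1.84 ± 0.38, adjusted p = 0.0011. Both genes are known from pericytes and smooth muscle, whose 8 markers summed in the cochlea to 487 to 562 CPM at E16, 442 to 514 at P0 and 405 to 469.6 at P16, and in the SOC to 346 to 400.1, 276 to 286 and 419 to 491 CPM. By gene, in the cochlea 5 of the 8 rose and 2 fell from P0 to P16, with a median log2 fold change of 1.08, and 5 rose and 1 fell from E16 to P16, while in the SOC 2 rose and 1 fell from E16 to P16. Their part in the changes of both genes was not tested.

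Cox6b2, the testis form of Cox6b1, fell in the cochlea, where it was at 4.58, 6.54 and 5.36 CPM at E16, 5.6, 6.57 and 6.29 at P0 and 1.25, 2.08 and 3.33 at P16. The P16 libraries lay below all others, with a change from E16 of -1.23 ± 0.29, adjusted p = 0.0031 and from P0 of -1.49 ± 0.29, adjusted p = 0.00086. The fall from E16 no longer passed without replicate 2 or 3 of E16 or replicate 2 of P16. In the SOC Cox6b2 was at 1.5, 1.2, 1.41 and 0 CPM at E16 and at 0 in all 3 libraries of P16, but each of these zeros, replicate 4 of E16 included, came from a table without the gene and no fold is given. Over the 8 pairs of related genes, the log2 ratio per kilobase was compared between ages by two-sided exact permutation tests, 48 in all, of which 4 had a raw p under 0.05. The smallest p that these designs allow is 0.1 for 3 against 3 libraries, 0.0286 for 4 against 4 and 0.0571 for 4 against 3, and the smallest adjusted p was 0.166.

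Of the muscle forms, Cox8b and Cox7a1 were called higher at P16 than at E16 in both organs, and Cox6a2 was not. The stretches upstream of the start sites of these called forms and of their common forms are printed here for that reason. They are the 250 bases before the RefSeq start in the mouse build GRCm38.p6, 5′ to 3′ on the strand of the gene: chr19:7217617-7217866 (minus strand) for Cox8a, chr7:140900447-140900696 (minus) for Cox8b, chr9:79759854-79760103 (minus) for Cox7a2 and chr7:30183921-30184170 (plus) for Cox7a1. None of the 4 motifs described near the end lies whole within these stretches, so all letters are in lower case. In the wider window searched there, Cox8a has the GABP motif at -6, across the start, and at 31, past it.
Cox8a: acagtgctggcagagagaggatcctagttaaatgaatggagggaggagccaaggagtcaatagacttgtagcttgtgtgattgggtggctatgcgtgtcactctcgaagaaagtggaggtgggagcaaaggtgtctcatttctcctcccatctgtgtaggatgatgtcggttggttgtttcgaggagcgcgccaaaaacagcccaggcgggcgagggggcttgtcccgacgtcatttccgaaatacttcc
Cox8b: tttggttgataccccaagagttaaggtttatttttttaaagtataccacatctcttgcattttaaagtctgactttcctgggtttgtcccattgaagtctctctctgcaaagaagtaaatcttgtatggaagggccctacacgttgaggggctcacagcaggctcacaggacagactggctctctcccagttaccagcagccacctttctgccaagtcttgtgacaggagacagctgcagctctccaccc
Cox7a2: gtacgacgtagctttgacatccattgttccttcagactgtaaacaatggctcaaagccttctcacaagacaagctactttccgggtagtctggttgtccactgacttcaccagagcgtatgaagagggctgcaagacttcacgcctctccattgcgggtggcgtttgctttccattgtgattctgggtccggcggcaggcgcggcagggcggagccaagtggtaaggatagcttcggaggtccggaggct
Cox7a1: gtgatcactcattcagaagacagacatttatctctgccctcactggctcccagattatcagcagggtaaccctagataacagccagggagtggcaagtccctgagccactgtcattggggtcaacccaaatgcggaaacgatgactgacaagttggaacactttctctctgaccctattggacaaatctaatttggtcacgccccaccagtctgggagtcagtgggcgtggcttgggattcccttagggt

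The dinucleotide CG occurs 11 times in the stretch of Cox8a and 1 time in that of Cox8b, and 14 times in the stretch of Cox7a2 and 4 times in that of Cox7a1. Their GC contents are 52.8%, 47.2%, 54.8% and 51.2% in the order printed.

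Between E16 and P0 the number of members that passed was small as tested, and in the SOC it depended on the fit. In the cochlea 11 of 85 members rose and 4 fell, against 14.3% and 11.9% of all genes. The 11 were Ndufb11 and Ndufv3 of complex I, Uqcr10 and Uqcrq of complex III, Cox4i2, Cox5b, Cox7a1, Cox8a and Cox8b of complex IV, Atp5l of complex V and Atp5sl. Ndufab1, the mitochondrial acyl carrier protein, Ndufb2, Ndufaf2 and Ndufaf4 fell. In the SOC 4 of 86 rose (Ndufa10, Ndufa4, Atp5g1 and Ndufaf5) and Cox8b fell, against 11.1% and 13.5% of all genes, although 76 of the 86 estimates were above 0, with a median of 0.30 against -0.03 over all genes. That count of 4, or 4.65% of the members, lay below the background, but it lay above it in other fits. It was 32 with the joined table as a term (37.2% of the members, with 21.2% of all genes) and 22 in DESeq2 (25.6%, with 16.1%). All 4 pairs of SOC libraries with the same replicate number at E16 and P0 deviated together from the means of their ages, with correlations across genes of 0.43 to 0.71. Unlike numbers also correlated. Replicate 2 of E16 reached 0.50 with replicate 3 of P0, against 0.43 with its own number. Replicate 3 of E16 reached 0.56 with replicate 2 of P0, against 0.45 with its own number. The numbers were taken to pair the libraries for this comparison, but these correlations do not settle the pairing. With the replicate number as a block 24 rose (27.9%, with 18.2%) and 3 fell (3.49%, with 19.5%), namely Cox8b, Cox6a2 and Ndufa4l2. With the block and offsets adjusted along GC content 44 rose (51.2%, with 21.3%). Without single libraries, and with no block, it went from 0 (replicate 2 or 3 of E16, or 1 or 2 of P0, with 8.08% to 8.95% of all genes) to 11 (replicate 4 of P0, with 12.9%), and the cochlear 11 went from 4 (replicate 3 of E16 or of P0, with 7.12% and 8.09% of all genes) to 18 (replicate 3 of P16, with 16.4%). From P0 to P16, 40 members rose in the SOC and none fell, against 18.4% and 18.2% of all genes, and the count was 23 with upper-quartile factors, beside 16% of all genes. At an unadjusted p under 0.05 the number of falls in that comparison was 2 in edgeR (Ndufaf6 and Cox6b2), and DESeq2 gave 1 at an adjusted p under 0.01. The zeros of Cox6b2 in the SOC at P16 come from tables that leave the gene out, so its fall cannot be read from them. In the cochlea 28 rose and 6 fell from P0 to P16, against 27% and 24.8%. The 28, or 32.9% of the members, were 46 without replicate 3 of P16 (54.1%, with 29% of all genes). They were 17 without replicate 2 of P0 (20%, with 22.9%), and 13 without replicate 3 of P0 or replicate 1 or 2 of P16 (15.3%, with 22.2% to 24.3%), which lies below the background. The 40 of the SOC were 20 to 22 without replicate 2 or 3 of P0 or replicate 1 or 2 of P16 (23.3% to 25.6%, with 14.1% to 15.8%).

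The difference between the organs was tested directly as an interaction, cochlear change from E16 to P16 less the SOC change, on the 15773 genes detected in both. It was above 0 for Cox8b (4.38 ± 0.67, adjusted p = 3.6e-05) and below 0 for 6 members, against 19% and 11.2% of all genes, so neither count stood above the background. The median of the differences was -0.28 over 85 members and 0.11 over all genes. Among the 6, the assembly factor Ndufaf2 was lowest (-1.06 ± 0.25, adjusted p = 0.0024), followed by Ndufb5, an accessory subunit of the membrane arm (-0.79 ± 0.21, adjusted p = 0.0047), and Ndufaf7, a methyltransferase needed to assemble complex I (-0.70 ± 0.20, adjusted p = 0.0075). Ndufb5 was at 119, 93.7, 110.2 and 122 CPM at E16 and 208, 206 and 171 at P16 in the SOC, and at 41.6, 37.1 and 43.5 and 47.2, 48.3 and 39.1 in the cochlea. The SOC ages did not overlap and the cochlear ages did. The count of 6 was 14 in DESeq2 (16.5% of the members, with 15.1% of all genes) and 18 with offsets adjusted along GC content (21.2%, with 18.5%). It went from 1 without replicate 3 of cochlear E16 (1.18%, with 9.49%) to 12 without replicate 1 of cochlear P16 (14.1%, with 11.4%). It was 2 or 3 without replicate 1 of cochlear E16, replicate 3 of cochlear P16 or replicate 1 or 2 of SOC P16 (2.35% or 3.53%, with 9.24% to 10.5%). It was 11 without replicate 4 of SOC E16 or replicate 3 of SOC P16 (12.9%, with 13.5% of all genes), which also lies below the background.

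**Figure D3:**
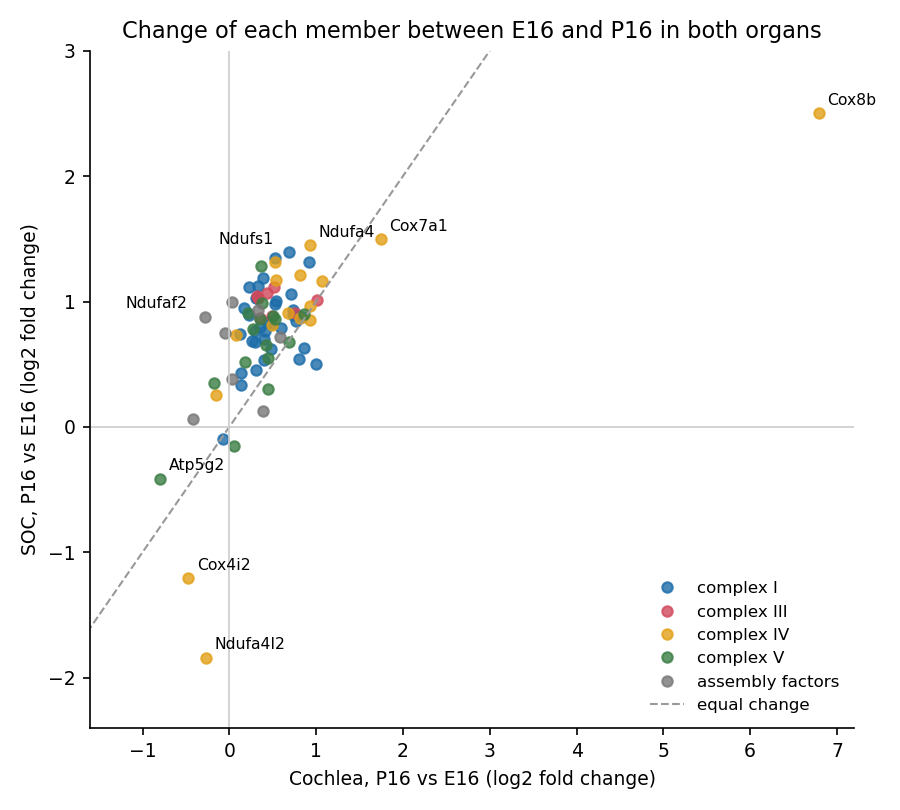
Log2 fold change from E16 to P16 of each member in the cochlea (x axis) and in the SOC (y axis), 1 point per member, coloured by complex, with a dashed line for equal change. Cox6b2, at 0 in SOC libraries, and Cox6a2, at 0 in the cochlea, are not drawn. Most points lie above the line, and Cox8b stands alone at 6.80 and 2.5.

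Libraries of 1 age deviated from their mean along GC content, and the members followed this trend. Over 13540 genes of the SOC, the rank correlation of this deviation with GC content reached 0.81 in size, in replicate 4 of E16. The exons of the members have 40.2% to 60.9% GC, with a median of 51.5%. The rank correlation across members between GC content and the deviation of a library from its age mean was over 0.3 in size in 18 of 20 libraries and reached 0.74; genes are not independent replicates, so no p is given. In the cochlea the change from E16 to P0 went with GC content, with a rank correlation of 0.62 over 85 members, which was 0.26 after the offsets had been adjusted along GC content. Before that adjustment it was 0.37 over 21014 genes, so the trend was not particular to the members. The 43 members of lower GC content had a median change of -0.18 and the 42 of higher GC content one of 0.33. Of the 11 members that rose from E16 to P0 in the cochlea, 10 were among those of higher GC content, and the 4 that fell were all among the others. From P0 to P16 the cochlear trend ran the other way, with a rank correlation of -0.51 over 85 members (-0.16 with adjusted offsets) and -0.20 over 21014 genes. The medians were 0.56 and 0.12, and 23 of the 28 members that rose were among those of lower GC content. For P16 against E16 the medians of the 2 sets were 0.38 and 0.45 in the cochlea, where 13 and 17 members rose. In the SOC they were 0.89 and 0.79, and 41 of 43 members of lower and 27 of 43 of higher GC content rose. Counts of members that rose between E16 and P16 with adjusted offsets were 46 in the cochlea (54.1%, with 30.6% of all genes) and 73 in the SOC (84.9%, with 29.2%).

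**Figure D4:**
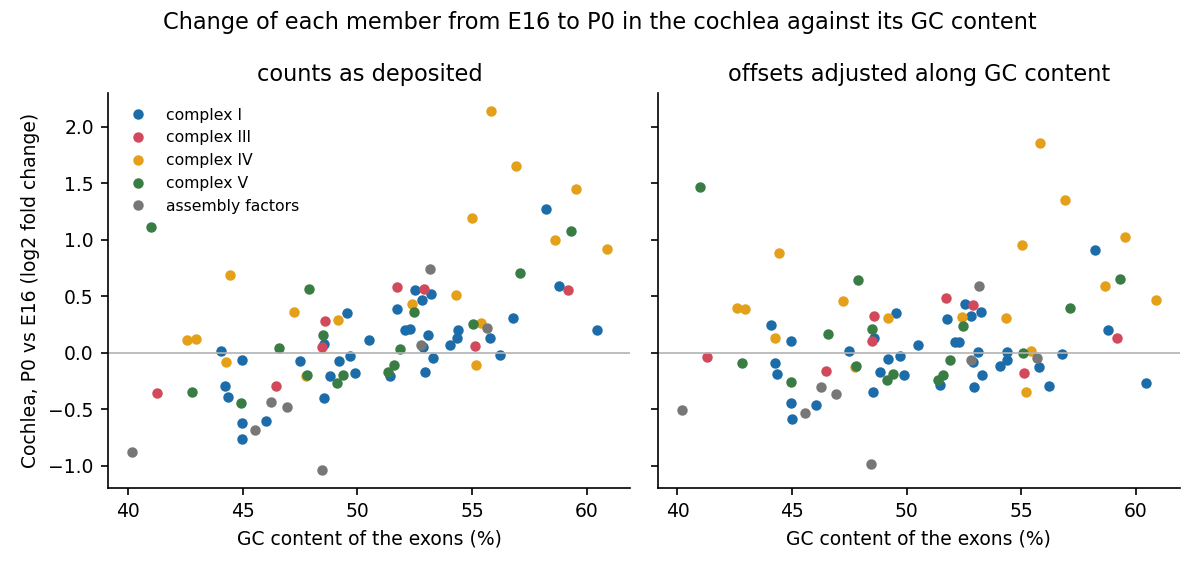
Log2 fold change from E16 to P0 in the cochlea (y axis) against the GC content of the exons in percent (x axis) for each member, coloured by complex, with the counts as deposited (left) and with offsets adjusted along GC content (right). The slope on the left, with a rank correlation of 0.62 over 85 members, is weaker on the right, at 0.26. Over 21014 genes, not drawn, the correlation without adjustment was 0.37.

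The other genes of the pathway were taken from lists apart from the rule. The shares of all genes to set beside their counts are those given above for P16 against E16, 23.7% higher and 26.5% lower in the SOC and 26.2% and 23.6% in the cochlea. Of complex II and cytochrome c, 5 of 6 rose in the SOC from E16 to P16 and 4 of 6 in the cochlea, and Sdha, the flavoprotein of complex II, was called in the SOC (1.86 ± 0.14, adjusted p = 3.8e-07). Of the subunits encoded in mitochondrial DNA, 3 of 9 rose in the SOC and 3 of 7 in the cochlea, with the calls mt-Co1 (1.99 ± 0.27, adjusted p = 4.3e-05) and mt-Nd5 (1.69 ± 0.40, adjusted p = 0.003) in the SOC. Their median log2 fold change was 1.41 over the 9 in the SOC and 0.70 over the 7 in the cochlea. Of the further assembly factors, 12 of 30 rose and 1 fell in the SOC, and 7 of 29 rose and 1 fell in the cochlea, where the share that rose, 24.1%, was near the background. Atpaf1, which assembles the head of complex V, was called in the SOC (2.08 ± 0.15, adjusted p = 2.5e-07). Of 17 genes of the citrate cycle and pyruvate dehydrogenase, 15 rose and 1 fell in the SOC, and 8 rose and 2 fell in the cochlea.

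The regulators of these genes did not move as 1 group. Of 14, 4 rose and 4 fell in the SOC, and 4 rose and 6 fell in the cochlea. Ppargc1a, the coactivator of mitochondrial biogenesis, rose by a log2 fold change of 3.27 ± 0.12, adjusted p = 4.1e-09 in the cochlea and 2.41 ± 0.31, adjusted p = 2.8e-05 in the SOC. Its relative Ppargc1b and the nuclear receptors Esrra and Esrrg also rose in both organs, by 1.36, 1.86 and 0.85 in the cochlea and 2.24, 1.57 and 1.49 in the SOC. The transcription factor Nrf1 fell in both, with -0.55 ± 0.09, adjusted p = 0.00026 and -1.06 ± 0.13, adjusted p = 1.9e-05, as did Gabpb1 and Pprc1. Yy1 fell in the SOC (-0.76 ± 0.15, adjusted p = 0.00097), and Gabpa, Tfam and Tfb1m fell in the cochlea (-0.59, -0.67 and -0.72).

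The promoters of the members were searched for 4 short motifs linked to these regulators, on both strands and from 250 bases before to 50 bases after the RefSeq start. A promoter was found for 72 of the 86 members. The NRF1 motif, GCGCA and GCGC with any 1 base between them, was present in 16 of the 72 (22.2%) and in 4.78% of the promoters of 27025 genes. The YY1 motif AAGATGGC was present in 10 (13.9%, against 2.88%), the GABP motif CCGGAAGT in 5 (6.94%, against 4.00%) and the ERR motif CAAGGTCA in 3 (4.17%, against 1.53%). None of the YY1 matches in members lay whole before the start, as their first bases ranged from -3 to 38. At least 1 of the motifs was present in 30 members. The letters of the NRF1 motif read almost alike on both strands, so a site can match on both and was counted once. Of the 16 with the NRF1 motif, 12 rose in the SOC from E16 to P16, beside 68 of all 86. Such a match describes the letters and is not a binding site.

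Printed as examples, with the motif in capitals, are the 250 bases before the start of Cox6a1, the common form of a complex IV subunit, with the NRF1 motif at -162 and -117 from the start, and of Uqcrh of complex III, with the GABP motif at -11, read on the other strand. From RefSeq, build GRCm38.p6, they lie at chr5:115348959-115349208 (minus strand) and chr4:116075071-116075320 (minus strand).
Cox6a1: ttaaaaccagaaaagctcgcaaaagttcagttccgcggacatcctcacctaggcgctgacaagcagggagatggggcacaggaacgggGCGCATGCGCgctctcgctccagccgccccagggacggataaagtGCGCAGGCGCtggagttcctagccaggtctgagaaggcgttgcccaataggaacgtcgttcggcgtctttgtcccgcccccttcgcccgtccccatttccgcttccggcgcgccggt
Uqcrh: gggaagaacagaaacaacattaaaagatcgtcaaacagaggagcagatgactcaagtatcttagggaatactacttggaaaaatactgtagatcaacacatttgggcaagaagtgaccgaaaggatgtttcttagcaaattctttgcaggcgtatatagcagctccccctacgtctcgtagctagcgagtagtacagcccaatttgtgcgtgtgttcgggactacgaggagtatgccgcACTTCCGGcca

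SOC libraries had Cox6a1 at 135, 112, 138 and 75.3 CPM at E16, 196, 180.3, 168 and 103 at P0 and 153, 154 and 201 at P16. It rose there by 0.85 ± 0.22, adjusted p = 0.0051, which no longer passed with upper-quartile factors or without replicate 2 of E16 or any one P16 library, while its cochlear values of 27.9, 55.1 and 33 CPM at E16 and 48.5, 62.3 and 98.2 at P16 overlapped. Uqcrh stood in the SOC at 165, 134, 159.6 and 116 CPM at E16, 182, 165, 153 and 140.1 at P0 and 241, 243 and 235 at P16, with P16 above both earlier ages.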

How the data were processed

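Gene counts were as deposited. The authors made the libraries with strand-specific kits, those of the SOC read in pairs. Their methods name STAR for aligning to the mouse genome (mm10) and for counting reads per gene, with GENCODE annotations, whereas the submitters' processing notes list STAR 2.5.3a and also HTSeq. The version of the annotation and the strand setting of the counting are not given in the sources used here. The deposited counts were whole numbers, not normalized, and came as 1 table of 20 libraries with 22734 genes.

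The members and all gene lists were chosen with earlier results of these data known. Counts were tested with edgeR 4.0.16 (R 4.3.3) by its quasi-likelihood F test with TMM factors, in 1 fit per organ over the 3 ages, on genes above 0.5 CPM in at least 3 libraries of an age, with Benjamini-Hochberg adjustment over all genes tested. The difference between organs was an interaction term over all 20 libraries. Libraries were grouped by the organ and age in their labels. The labels do not give separate animals for each library, so p-values measure the spread between these samples, which may be technical. Replicate numbers were taken as pairs for the SOC between E16 and P0 alone, where all 4 same-numbered pairs correlated, though some unlike-numbered pairs correlated more. The fit with the block held the P16 libraries too. A standard error follows each log2 fold change. CPM is the count scaled to a common library total, and values per kilobase are CPM divided by the exon length from GENCODE M21. That length joins the exons of all annotated transcripts of a gene, so levels and shares per kilobase depend on the annotation. Isoform pairs were compared as the log2 ratio of counts per kilobase, with 0.5 added to each count, by two-sided exact permutation tests (scipy 1.17.1). Promoter sequences and motif shares came from RefSeq.

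The members described with values were the tissue isoforms, the core subunits, the largest rise and fall of each complex and organ among members with at least 20 CPM, every member called, and the largest interactions in each direction. Ndufa13, Ndufaf4, Atp5d and Atp5e were named after their values were seen. Not every member that the rule names is reported here. Other genes of the pathway were named where called between E16 and P16, or as regulators. The fit was tested on simulated data with known changes. Alternatives were DESeq2 1.42.0, upper-quartile factors, no filter on low counts, offsets adjusted along GC content by a lowess curve (span 0.3), the replicate number as a block, the joined table as a term, other constants for ratios and each library left out. An adjustment along GC content within ages only was added after seeing the data.

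No libraries held identical values, and replicates of a group differed by more than sampling noise (chi-square per degree of freedom 4.96 to 108.9 over 24 pairs). Some members share many 50-base words with other genes and are uncertain, among them Uqcrb (43.2% of its words) and Atp5h (47.9%). Exons on the opposite strand cover over 20% of the exons of Ndufb6, Ndufa13, Atp5o and Ndufaf2.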

Additional observations from a re-analysis of the deposited data

Results flagged for a closer look

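In 4 of 102 groups of 4 SOC libraries tested, 1 library lay farther from the other 3 than Dixon's critical ratio of 0.829 allows, and chance flags about 1 in 20 groups. Cox7a2 was at 205 CPM in replicate 1 of SOC P0, and Cox8a at 160 CPM in replicate 4 of SOC P0. Cox8b was at 0.0886 CPM in replicate 3 of SOC P0, where 2 counts stood against 0 in the other 3 libraries. Atp5g2 was at 31.8 CPM in replicate 4 of SOC E16, below 47.0 to 49.7 CPM in the other 3. The 2 libraries numbered 4 belong to another joined table than replicates 1 to 3.

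For the members that follow, the change from E16 to P16 differed between the organs in edgeR's interaction test at an adjusted p under 0.01, as cochlea minus SOC on the log2 scale. The difference was 4.38 ± 0.67, adjusted p = 3.6e-05 for Cox8b, which was at 22.3, 21.1 and 17.2 CPM in the cochlea and at 3.42, 1.94 and 3.03 CPM in the SOC at P16. Ndufaf2 had -1.06 ± 0.25, adjusted p = 0.0024, and the values were -0.79 ± 0.21, adjusted p = 0.0047 for Ndufb5 and -0.70 ± 0.20, adjusted p = 0.0075 for Ndufaf7. Values below 0 also stood for Ndufab1 (-0.68 ± 0.19, adjusted p = 0.0082) and Ndufa10 (-0.61 ± 0.14, adjusted p = 0.002). Apart from Cox8b, these 5 rose in the SOC and passed the test in neither direction in the cochlea, where their changes in the same order were -0.28, 0.22, -0.05, 0.17 and 0.31. Organ cannot be told apart from substrain, laboratory and kit in this test.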

How the results depend on the processing

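Of 5821 recomputed changes of named members, 5178 kept their direction and their side of the threshold, 260 no longer passed, 381 newly passed and 2 reversed. Both reversals were Uqcr11 in the cochlea between P0 and P16, at -0.04 as reported, 0.412 with offsets adjusted along GC content and 0.408 with the replicate block and those offsets. The counts of members that rose or fell moved as follows, as reported and then under the alternative. Brackets after a count give the share of the members and then that of all genes in the same fit. Cochlea P0 against E16 (11 rose, 4 fell) gave 20 risen in DESeq2 (23.5%, 17.6%). With the adjustment along GC content within ages it gave 21 risen (24.7%, 20.5%) and 7 fallen (8.24%, 17.5%). Cochlea P16 against E16 (30 and 1) gave 46 (54.1%, 30.6%) and 2 (2.35%, 26.1%) with GC-adjusted offsets. It gave 2 fallen (2.35%, 27.9%) with the adjustment within ages. Cochlea P16 against P0 (28 risen) gave 45 (52.9%, 31.2%) with GC-adjusted offsets. SOC P0 against E16 (4 and 1) gave 22 (25.6%, 16.1%) and 2 (2.33%, 16.6%) in DESeq2. It gave 23 (26.7%, 18.5%) and 2 (2.33%, 19.6%) with GC-adjusted offsets, and 22 (25.6%, 18.7%) and 2 (2.33%, 19.4%) within ages. With the joined table as a term it gave 32 (37.2%, 21.2%) and 4 (4.65%, 23.3%). SOC P16 against E16 (1 fallen) gave 2 in DESeq2 (2.33%, 32%) and 2 with the adjustment within ages (2.33%, 33.3%). Its 6 calls were 12 with the joined table as a term, beside 2164 genes called higher and 2605 called lower of all 16588 tested. SOC P16 against P0 (40 risen, 0 fallen) gave 23 risen (26.7%, 16%) with upper-quartile factors and 1 fallen (1.16%, 24%) in DESeq2. The interaction (1 above 0, 6 below) gave 2 (2.35%, 21.1%) and 14 (16.5%, 15.1%) in DESeq2. It gave 18 below (21.2%, 18.5%) with GC-adjusted offsets, and 2 (2.35%, 25.8%) and 19 (22.4%, 17.3%) within ages. The cause of these moves was not tested.

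Replicate numbers are shared between ages in the labels, but same-numbered libraries correlated at -0.33 to 0.61 in the cochlea (5 of 9 pairs over 0.1) and -0.27 to 0.71 in the SOC (6 of 10), and 6 of 9 and 5 of 11 libraries correlated best with their own number, so beyond the SOC between E16 and P0, where all 4 pairs were over 0.1, the numbers were not taken as pairs. Brackets again give the share of the members and then that of all genes. With the replicate block, the cochlea gave 17 risen (20%, 16.3%) from E16 to P0. The SOC gave 24 risen (27.9%, 18.2%) and 3 fallen (3.49%, 19.5%) from E16 to P0. It gave 3 fallen (3.49%, 34.2%) from E16 to P16 and 1 fallen (1.16%, 26.4%) from P0 to P16. The interaction gave 2 above (2.35%, 25.4%) and 14 below 0 (16.5%, 17.4%). With the block and GC-adjusted offsets, the cochlea gave 2 fallen (2.35%, 25.9%) from E16 to P16 and 48 risen (56.5%, 30.4%) from P0 to P16. The SOC gave 44 risen (51.2%, 21.3%) and 3 fallen (3.49%, 22.3%) from E16 to P0. It gave 2 fallen (2.33%, 35.2%) from E16 to P16 and 1 fallen (1.16%, 27.3%) from P0 to P16.

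Each library was also left out in turn, and brackets here give the range of the share of all genes. Of 85 members in the cochlea, 4 to 18 rose (7.12% to 16.4%) and 2 to 6 fell (6.19% to 16.7%) for P0 against E16. For P16 against E16, 17 to 40 rose (22% to 26.5%) and 0 to 2 fell (19.3% to 24.4%). For P16 against P0, 13 to 46 rose (22.2% to 29%) and 4 to 9 fell (20.1% to 26%). Of 86 members in the SOC, in the same order, 0 to 11 rose (7.9% to 12.9%) and 1 to 2 fell (10.3% to 14.6%). Then 56 to 69 rose (20.5% to 26.1%) and 1 to 2 fell (20.8% to 28.7%), and 20 to 43 rose (14.1% to 19.9%) and 0 to 1 fell (13% to 20.2%). The interaction ranged from 1 to 2 above (15.4% to 20.9%) and 1 to 12 below 0 (9.24% to 13.5%). With 5 counts added, the log2 ratio of Cox8b to Cox8a differed by 0.381 (cochlea P0 against E16), 4.92 (cochlea P16 against E16), -2.15 (SOC P0 against E16) and 3.41 (SOC P16 against P0), instead of 1.00, 5.84, -4.52 and 6.19. With TMM scaling the members took 0.461% of cochlear counts at E16 and 1.78% of SOC counts at P16. Low counts limit Cox8b before P16, Cox6a2 and Cox6b2 in the SOC, and Cox4i2.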

Other observations

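Of 17 glycolysis genes, 11 rose and 3 fell in the SOC from E16 to P16, and 7 rose and 3 fell in the cochlea, beside 23.7% and 26.5% of all genes in the SOC and 26.2% and 23.6% in the cochlea. The neuronal enolase Eno2 rose in the cochlea (4.21 ± 0.17, adjusted p = 6.5e-09) and in the SOC (3.58 ± 0.18, adjusted p = 2.1e-08), and Aldoc, the aldolase of astrocytes, rose in the SOC (3.41 ± 0.20, adjusted p = 5.2e-08). The lactate dehydrogenase subunits moved in opposite directions in both organs, with Ldhb at 1.56 and 2.52 and Ldha at -1.43 and -1.34 in the cochlea and the SOC. Neuronal markers summed to 542 to 701 CPM in the cochlea at E16 and 2121 to 2657 CPM at P16. By gene, 6 of 9 rose and 2 fell, and their part in these changes was not tested.

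Of 11 genes of carriers and uncoupling, 7 rose in each organ. Ckmt1, the common mitochondrial creatine kinase, rose in both (2.75 ± 0.20, adjusted p = 4.4e-07 in the cochlea and 2.76 ± 0.16, adjusted p = 4.8e-08 in the SOC). Ckmt2, the muscle form, rose in the cochlea (3.23 ± 0.26, adjusted p = 1.2e-06) from 0.342 to 0.521 CPM at E16 to 3.25 to 4.53 CPM at P16, and fell in the SOC from 0.835 to 2.06 CPM to 0 to 0.203 CPM (adjusted p = 0.0068 in edgeR), where the skeletal muscle markers summed to 891 to 1876 CPM at E16 and 4.28 to 5.93 CPM at P16. In the citrate cycle, Idh2 fell in both organs (-1.59 and -2.27) while Idh3a rose (1.62 and 2.16), both being isocitrate dehydrogenases of the mitochondria.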
